A study of Mus musculus with 8 samples.

Results

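The mRNAs described here code for the cytosolic machinery that translates mRNA in mouse embryonic stem (ES) cells: initiation, elongation, termination and recycling factors, cytosolic poly(A)-binding proteins, and the aminoacyl-tRNA synthetases. Members were taken by gene symbol: names beginning with Eif, Eef or Pabpc followed by their number, the release and recycling factors Etf1, Gspt and Abce1, and the tRNA synthetase symbols. Of the 3160 genes analyzed, 47 were members. They were 6 start-codon factors, 2 subunits of eIF2B, 7 of eIF3, 6 eIF4 genes, 3 kinases of eIF2, 1 eIF5A gene, 4 elongation factors, 3 termination and recycling factors, 2 poly(A)-binding proteins, and 11 cytosolic and 2 mitochondrial tRNA synthetases. The role lists from which these were described name 119 genes, so most of the machinery was not analyzed here.

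The cells were of line E14Tg2A, derived from mouse strain 129/Ola, in 2 stages. ES cells were kept in serum with LIF (day 0), and epiblast-like aggregates (ELA) had floated for 2 days in a chemically defined medium without LIF. In each stage, lysates of cycloheximide-treated cells gave total RNA (input) and RNA recovered with ribosomes by an antibody to the cells' own ribosomal protein Rpl10a (Rpl10a-IP), so no tagged transgene was used. Each of the 4 groups held 2 libraries, 8 in all. The study's methods say that experiments were duplicated but not whether from separate cultures, and this is 1 cell line, so p-values measure the spread between these libraries, which may be technical.

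Translation starts when eIF2, GTP and the initiator tRNA form a ternary complex that joins the small ribosomal subunit together with eIF1, eIF1A, eIF3 and eIF5. The eIF4 proteins bring that subunit to the mRNA cap. eIF2B recharges eIF2 with GTP, and phosphorylation of eIF2 by kinases such as PERK blocks this exchange and lowers initiation at most mRNAs. tRNA synthetases load amino acids onto tRNAs, eEF1 delivers the loaded tRNAs, and eEF2 moves the ribosome along. Pluripotent cells are known for a low translation rate that increases as they differentiate.

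Depth, as reads summed over the 3160 genes analyzed and not the size of the whole library, differed strongly between groups. The ELA input libraries held 159587 and 410192 such reads, and the other 6 held from 3898414 to 23483388. The study's methods left out ELA input replicate 1 for low complexity, more duplicate reads and poor correlation with the other libraries. Reads of the members in ELA input replicate 1 ran from 5 for Eif2b1 to 2006 for Eef1a1. The stage labels were checked against markers: all 6 measured naive markers (Fgf4, Klf2, Klf4, Nanog, Tdgf1, Tfcp2l1) fell in total RNA, and both measured markers of the primed epiblast (Dnmt3a, Dnmt3b) rose. Of 3 measured markers shared by both states, Pou5f1 fell by 1.18, Sall4 rose by 0.25, lost in 5 fits that left out 1 library, and Lin28a had a change of 0.11 that did not pass. Of the neural markers, Nes and Map2 rose too, by 2.51 and 2.03 on the log2 scale, and their part in the results below was not tested. None of the 9 endoderm and trophoblast markers was among the genes analyzed.

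The members together took 6.45% and 6.23% of these reads in the ES input libraries and 5.08% and 5.43% in ELA input. In Rpl10a-IP they took 5.92% and 6.10% in ES and 4.34% and 4.39% in ELA. Both ELA libraries lay below both ES libraries in each fraction, and the lowest values were those of the ELA Rpl10a-IP. The 95% Wilson intervals, which cover counting error only, were widest for ELA input replicate 1, at 4.98 to 5.19%. Eef1a1 alone, which delivers loaded tRNAs to the ribosome, took 1.69% and 1.56% of these reads in ES input and 1.26% and 1.49% in ELA input, and 1.46% and 1.61% in ES Rpl10a-IP against 0.991% and 0.993% in ELA Rpl10a-IP.

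**Figure D1:**
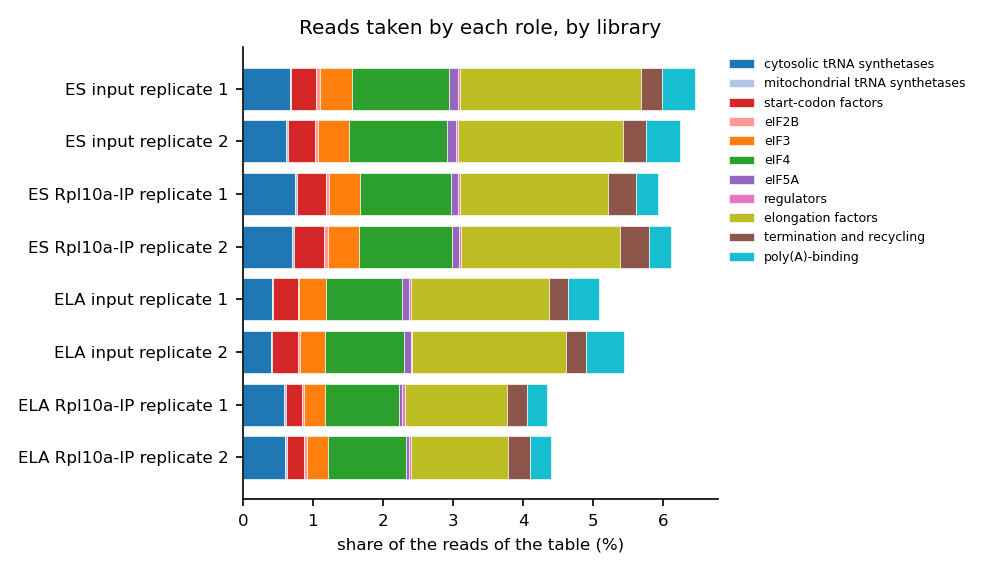
Share, in percent, of the reads of each library on the 3160 genes analyzed, taken by each role among the 47 members; each bar is 1 library and each color 1 role. The bars run from 4.34% in an ELA Rpl10a-IP library to 6.45% in an ES input library.

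Total RNA was compared between the stages first. Of the 47 members, 35 fell and 2 rose from ES to ELA (limma on log2(normalized count + 1), adjusted p under 0.05 over all genes). Of all 3160 genes, 35.7% fell and 34.5% rose. The median change of the members was -0.45 on the log2 scale, against -0.02 over all genes. Among the 35 that fell, 5 fell by more than 2-fold: Eif2b1, Mars, Nars, Rars and Sars. The 2 that rose were Eif5 and Eef2. Those that did not pass included Abce1, Eif1ax, Eif2ak2, Eif3c, Eif3e, Eif4g1, Eif4g2, Gspt1 and Pabpc1. The authors had kept genes whose replicate ratios lay close together, so adjusted p-values may be understated. The fit shares 1 variance per gene over deep and shallow groups. SEs and adjusted p-values that use ELA input may therefore be too small where reads are few. In simulated data the share of false calls in total RNA was above the threshold. In bulk samples, fewer cells of a type and less RNA per cell cannot be told apart, and normalized counts are relative to the other genes of a library.

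In ribosome-bound RNA, 33 members fell and 3 rose. Over all genes, 41.9% fell and 41.6% rose, so the share of members that fell was 70.2%. The median of the members was -0.35, against -0.01 over all genes. With each library corrected for transcript length, described below, 46.8% fell and 23.4% rose, with a median of -0.14. A total of 28 members fell in both fractions, and the share of all genes that fell in both was not counted. The 3 that rose were Eif4g1, Eif2ak3 and Lars, and of these Eif2ak3 and Lars fell in total RNA. Eif5 did the reverse, with a rise in total RNA and a fall in ribosome-bound RNA. Abce1, Eif3c, Gspt1 and Pabpc1 passed in neither.

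**Figure D2:**
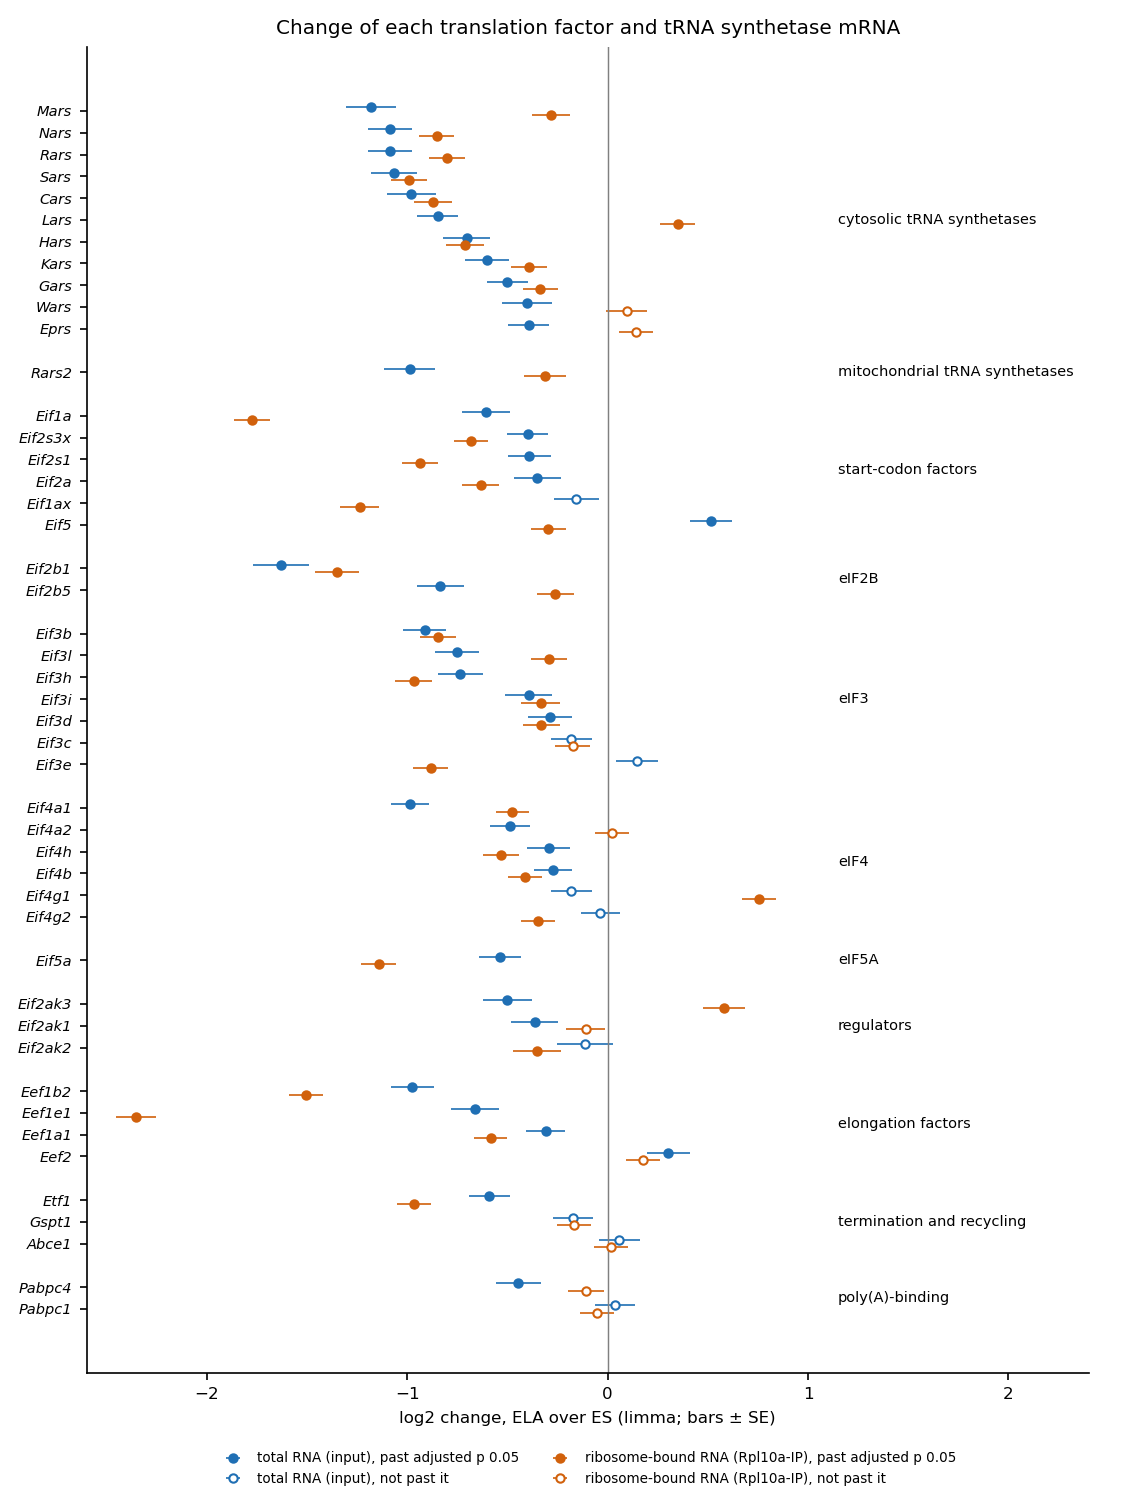
Log2 change from ES to ELA of each of 46 members, with bars of 1 SE, in total RNA (blue) and in ribosome-bound RNA (orange); filled points passed an adjusted p of 0.05 in limma, open points did not. All 11 cytosolic synthetases lie left of 0 in total RNA, and Eif4g1, Eif2ak3 and Lars are the filled orange points right of 0.

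The cytosolic tRNA synthetases fell in total RNA. All 11 measured of the 20 listed passed the test, with a median of -0.85 and a range of -1.18 to -0.39. Mars, which loads methionine, had normalized counts of 1375 and 1069.8 in ES input and of 489 and 583 in ELA input. The groups did not overlap, and the level was 2.27-fold lower in ELA (log2 change -1.18 ± 0.12 SE, limma adjusted p = 2.45e-10). Nars, the asparagine enzyme, went from 3821 and 3569 to 1577 and 1919, 2.12-fold lower. Rars, for arginine, went from 2593 and 2349 to 1251 and 1081, 2.12-fold lower. Sars, for serine, went from 2891 and 2489 to 1441 and 1134, 2.10-fold lower. For each of these enzymes the lowest ES input library lay above the highest ELA input library. The smallest falls were those of Wars (tryptophan), -0.40 ± 0.12, and Eprs (glutamate and proline), -0.39 ± 0.10. Without ES input replicate 1 the fall of Wars was -0.31, with an adjusted p of 0.0811 in limma.

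On ribosomes the synthetases parted. Sars (2854 and 2879 in ES against 1429 and 1427 in ELA), Cars, Nars and Rars fell by 0.80 to 0.99 on the log2 scale, close to their changes in total RNA. With length correction Sars (-0.96) and Cars (-0.73) fell by similar amounts, while the bound falls shrank to -0.54 for Nars and -0.30 for Rars. Mars had 1575 and 1371 in ES Rpl10a-IP and 1176 and 1222 in ELA Rpl10a-IP, a change of -0.28 ± 0.10 that was lost without ES Rpl10a-IP replicate 1 (-0.16, limma adjusted p = 0.241) or with length correction (-0.07). Lars, for leucine, had 3131 and 3221 in ES input and 1713 and 1813 in ELA input, but 3700.1 and 3985 in ES Rpl10a-IP and 4719.7 and 4979.8 in ELA Rpl10a-IP. Its ELA libraries were thus the lowest in one fraction and the highest in the other, without overlap in either. Total Lars RNA fell by 0.85 ± 0.10 while bound Lars RNA rose by 0.35 ± 0.09 (limma adjusted p = 5.45e-09 and 0.000138).

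Ribosome enrichment means a gene's ratio of Rpl10a-IP to input, set against that of the typical gene. Among the cytosolic synthetases its change from ES to ELA passed in 4 of 11, all toward higher enrichment, beside 28.4% of all genes higher and 27.7% lower: Lars, 1.19 ± 0.15, Mars, 0.89 ± 0.17, Eprs, 0.52 ± 0.15, and Wars, 0.48 ± 0.18. None changed toward lower enrichment. With length correction 8 of the 11 passed, again all toward higher enrichment, beside 26.0% of all genes. The call for Wars was lost without either ES Rpl10a-IP library, without ES input replicate 1 or without ELA Rpl10a-IP replicate 1, with values from 0.38 to 0.50. In ELA, Lars was 2.75-fold higher in Rpl10a-IP than in input, Mars 2.24-fold and Eprs 2.01-fold, and Rars and Wars 1.57-fold and 1.61-fold. Lars, Mars, Eprs and Rars belong with Kars and Eef1e1 to the multisynthetase complex, a cytosolic assembly of synthetases and scaffold proteins. Of the 6 members of that complex measured, all fell in total RNA, beside 35.7% of all genes, and 3 gained enrichment while Eef1e1 lost it. With length correction 5 fell, as the change of Eef1e1 went from -0.66 to -0.12, and 5 gained enrichment. The mitochondrial enzyme Rars2 fell in total RNA by 0.99 ± 0.13 and gained enrichment by 0.66 ± 0.18, from only 8 and 21 reads in the ELA input libraries. Its fall in bound RNA, -0.31, was lost without ES Rpl10a-IP replicate 2 (-0.25) or ELA Rpl10a-IP replicate 1 (-0.19).

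Promoter sequence was searched for letters that several of these genes share, since the synthetases fell together in total RNA. RefSeq promoter windows, from 250 bases before to 50 bases after a start, were given for 32 of the 47 members. The ETS-type motif CCGGAAG, searched on both strands, was in the windows of 12 of these 32 genes (37.5%), against 22.4% of the 2448 genes of the table that have a window and 9.93% of all 27025 genes. Of the 13 synthetases 5 had a window, and the motif was in those of Gars, Kars, Sars and Rars2. It was also in those of Eif1ax, Eif3c and Gspt1, whose total RNA did not pass the test. The E-box CACGTG was in 5 of 32 (15.6%, against 13.9% of the genes of the table), and the other motifs searched were each in 2 or 3 members. These were TGATGNAA, an ATF4-type element, with 2 (2.25% of the genes of the table), the cyclic AMP element TGACGTCA with 2 (4.33%), and AAGATGGC, a YY1-type element, with 3 (6.17%). A match is a description of the letters, and occupancy was not measured. To show the shared letters, stretches of 30 bases (build GRCm38.p6, each 5′ to 3′ on the strand of its gene) follow for 3 synthetases that fell and for Eif4g1, which rose on ribosomes. Capitals mark the motif or its reverse complement.
Sars, ETS motif, chr3:108445251-108445280, minus strand: taacactgcggCTTCCGGcgagctaggcgc
Kars, ETS motif, chr8:112011342-112011371, minus strand: cgccctctttcCCGGAAGaggcaggactta
Gars, ETS motif, chr6:55037864-55037893, plus strand: aagttggtgccCTTCCGGgttctctgccga
Eif4g1, E-box, chr16:20672662-20672691, plus strand: gcagtgggtgtCACGTGatggggcggagca

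The start-codon factors fell together on ribosomes. All 6 measured of the 13 listed had lower ribosome-bound RNA in ELA, with a median of -0.81 and a range of -1.78 to -0.30, beside 41.9% of all genes lower. Eif1ax and Eif1a code for near-identical forms of eIF1A, which helps the small subunit to scan, so reads could have been split between them. Eif1ax (chrX:159372178-159389621) had 1032 and 1073 in ES input and 924 and 965 in ELA input, with a change of -0.16 ± 0.11 that did not pass (limma adjusted p = 0.219) but was called with length correction (-0.38). In Rpl10a-IP it went from 1027 and 1127 to 435 and 469.6, 2.36-fold lower (-1.24 ± 0.10, limma adjusted p = 9.75e-26). Eif1a went from 2842 and 3036 to 825 and 877 on ribosomes, 3.42-fold lower, and from 2045 and 2380.3 to 1251 and 1675 in total RNA, 1.52-fold lower. For both genes the 2 ELA Rpl10a-IP libraries were the lowest of all 8.

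Eif5, the GTPase-activating factor of eIF2, had 4246 and 4525 in ES input and 6715 and 5862 in ELA input, a rise of 0.52 ± 0.10 (limma adjusted p = 5.12e-05). In Rpl10a-IP it went down from 3884 and 4031 to 2985 and 3418. The groups did not overlap in either fraction, and its enrichment changed by -0.83 ± 0.15. The fall in bound RNA, -0.30, was lost without ELA Rpl10a-IP replicate 1 (-0.20, limma adjusted p = 0.0531). Eif2s1, the subunit of eIF2 that the kinases phosphorylate, fell by 0.39 in total RNA and by 0.94 in bound RNA, and its enrichment changed by -0.56 ± 0.15. Eif2s3x, the X-linked subunit whose Y copy is near-identical, fell by 0.40 and 0.68. Eif2a, an alternative carrier of the initiator tRNA, fell by 0.35 and 0.63. The total RNA call of Eif2a was lost without either ES input library (-0.36 and -0.34) or without ELA input replicate 1 (-0.15), and ended with length correction (-0.13). In the change of enrichment, 4 of the 6 start-codon factors passed toward lower values (Eif1a, Eif1ax, Eif5, Eif2s1) and none toward higher, beside 27.7% and 28.4% of all genes.

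Both measured subunits of eIF2B fell in total RNA. Eif2b1 went from 509.8 and 465 to 136 and 180.2, 3.10-fold lower (-1.63 ± 0.14), and from 467 and 507 to 185 and 192 on ribosomes, 2.55-fold lower (-1.35 ± 0.11). These ELA input values rest on 5 and 17 reads, a sum whose exact 95% Poisson interval was 13.8 to 33.3. The SE of 0.14 comes from 1 variance shared by all groups and is small beside this counting error. The Rpl10a-IP values do not depend on those libraries. Eif2b5, the catalytic subunit, fell by 0.84 ± 0.12 in total RNA and gained enrichment by 0.56 ± 0.16. Its bound RNA fell by 0.26, a call lost without ES Rpl10a-IP replicate 2 (-0.24) or ELA Rpl10a-IP replicate 1 (-0.18), or with length correction (-0.11).

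Of the 3 kinases of eIF2 measured, Eif2ak3, which codes for PERK, the kinase of the endoplasmic reticulum, moved most. Its normalized counts were 458 and 424 in ES input and 326 and 297 in ELA input, against 396 and 418 in ES Rpl10a-IP and 592 and 614 in ELA Rpl10a-IP. Total RNA fell by 0.50 ± 0.12 and bound RNA rose by 0.58 ± 0.10, with no overlap between stages in either fraction, and enrichment rose by 1.07 ± 0.17 (limma adjusted p = 3.86e-06). Eif2ak1, the heme-regulated kinase, fell in total RNA by 0.36 ± 0.12 and had a bound change of -0.11 that did not pass but was called with length correction (-0.30). Eif2ak2, the kinase activated by double-stranded RNA, had a total change of -0.11 that did not pass. Its bound RNA fell by 0.35, a call lost without ES Rpl10a-IP replicate 2 (-0.30).

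The eIF3 subunits, which scaffold the initiation complex, mostly fell before correction for transcript length. Of 7 measured, 5 fell in total RNA and 6 in bound RNA, beside 35.7% and 41.9% of all genes. Eif3b, a core subunit, went from 4635 and 4217 to 2202 and 2502 in input, a fall of 0.91 ± 0.11, and fell by 0.85 ± 0.09 on ribosomes. Eif3h fell by 0.73 in total and 0.97 in bound RNA, and Eif3l by 0.75 and 0.29, the latter lost without ES Rpl10a-IP replicate 2 (-0.23). Eif3e differed from these. It had 3160.4 and 3282 in ES input and 3861 and 3286 in ELA input, a change of 0.15 ± 0.11 that did not pass, and 4605 and 4771 in ES Rpl10a-IP against 2395 and 2653 in ELA Rpl10a-IP, 1.84-fold lower. With length correction its total RNA rose by 0.55 and its bound change was -0.07, no longer past the threshold. Among the eIF3 subunits the change of enrichment passed for Eif3e, -1.04 ± 0.15, and for Eif3l, 0.45 ± 0.15. The call for Eif3l was lost without ES input replicate 1 (0.41) or ES Rpl10a-IP replicate 1 (0.37). The fall of Eif3d in total RNA, -0.29, was lost without either ES input library or without ELA input replicate 2, with values from -0.31 to -0.19. Correction for transcript length, described below, ended or turned most eIF3 calls in bound RNA, leaving 1 lower and 3 higher with a median of 0.07. In total RNA it left 3 lower and 1 higher, with a median of -0.06.

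Among the eIF4 genes, Eif4g1 and Eif4g2 went opposite ways on ribosomes. Eif4g1, the scaffold that links the cap-binding protein to eIF3 (chr16:20672720-20692883), had 5353 and 5589 in ES input and 5003 and 4654 in ELA input, a change of -0.18 ± 0.10 that did not pass but was called with length correction (-0.45). In Rpl10a-IP it had 4903 and 5389 in ES and 8348 and 8856 in ELA, 1.69-fold higher (0.75 ± 0.08, limma adjusted p = 5.1e-15). The ELA Rpl10a-IP libraries were the highest of the 8, and enrichment rose by 0.92 ± 0.14. The bound rise was 0.26 with length correction and 0.10 with the replicate number as a block plus length and GC correction, where it no longer passed (limma adjusted p = 0.169). Eif4g2, a relative that lacks the cap-binding protein's site, had 16566 and 17064 in ES Rpl10a-IP and 12472 and 13754 in ELA, 1.27-fold lower. Its total RNA changed by -0.04, which did not pass. With length correction it was called lower in both, at -0.43 in total and -1.16 in bound RNA. Its change of enrichment, -0.32, was lost on leaving out any of 6 libraries: ES input replicate 1 or 2, ES Rpl10a-IP replicate 1 or 2, ELA input replicate 2 or ELA Rpl10a-IP replicate 1, with values from -0.37 to -0.23.

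The helicase genes Eif4a1 and Eif4a2 both fell in total RNA and both gained enrichment. Eif4a1 went from 19342 and 18111 to 9706 and 9201 in input, 1.98-fold lower, and from 21254 and 21941 to 14989.6 and 15814 on ribosomes, 1.39-fold lower, where the change turned from -0.48 to 0.14 with length correction. Eif4a2 went from 6212 and 6576 to 4323 and 4813 in input, 1.40-fold lower, and had 5493 and 5494 against 5591 and 5456 on ribosomes, where the groups overlapped and the change, 0.02, was 0.31 and called with length correction. Enrichment rose by 0.50 ± 0.13 for Eif4a1 and by 0.49 ± 0.14 for Eif4a2. The helicase cofactors Eif4b and Eif4h fell by 0.27 and 0.29 in total RNA and by 0.41 and 0.53 on ribosomes. Without ES input replicate 1 both total RNA calls were lost, at -0.24 and -0.20, and with a weight for each group their adjusted p-values in limma were 0.0563 and 0.0529. Length correction ended both calls of Eif4h, at -0.09 in total and -0.14 in bound RNA.

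The elongation factors ranged from -2.35 to 0.18 in ribosome-bound RNA. The lowest value was that of Eef1e1. This gene, for a small scaffold protein of the multisynthetase complex that is named with the eEF1 subunits (chr13:38645691-38659028), had 918 and 918 in ES input and 598 and 562 in ELA input. In Rpl10a-IP it had 828 and 857 in ES against 165 and 161 in ELA, 5.11-fold lower (-2.35 ± 0.10, limma adjusted p = 3.12e-51). The bound fall exceeded the total fall, and enrichment changed by -1.70 ± 0.17. With length correction the changes of Eef1e1 were -0.12 in total RNA, -1.14 in bound RNA and -1.03 in enrichment. Eef1b2, the exchange factor that reloads eEF1A with GTP, went from 22612 and 19983 to 9489 and 12328 in input, 1.97-fold lower, and from 16502 and 16676 to 5768 and 5819 on ribosomes, 2.84-fold lower. Its change of enrichment was -0.54 ± 0.15, a call that ended with length correction. Eef1a1 fell by 0.31 in total and by 0.58 in bound RNA, the former lost without ES input replicate 1 (-0.24) or ELA input replicate 1 (-0.18), and with length correction both turned, to 0.03 and 0.08. Eef2 had 16725 and 14596 in ES input and 20690.0 and 17968 in ELA input, a rise of 0.30 that was lost without ES input replicate 2 or ELA input replicate 1 (0.21 each). Its bound change, 0.18, did not pass but was called with length correction (0.35).

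**Figure D3:**
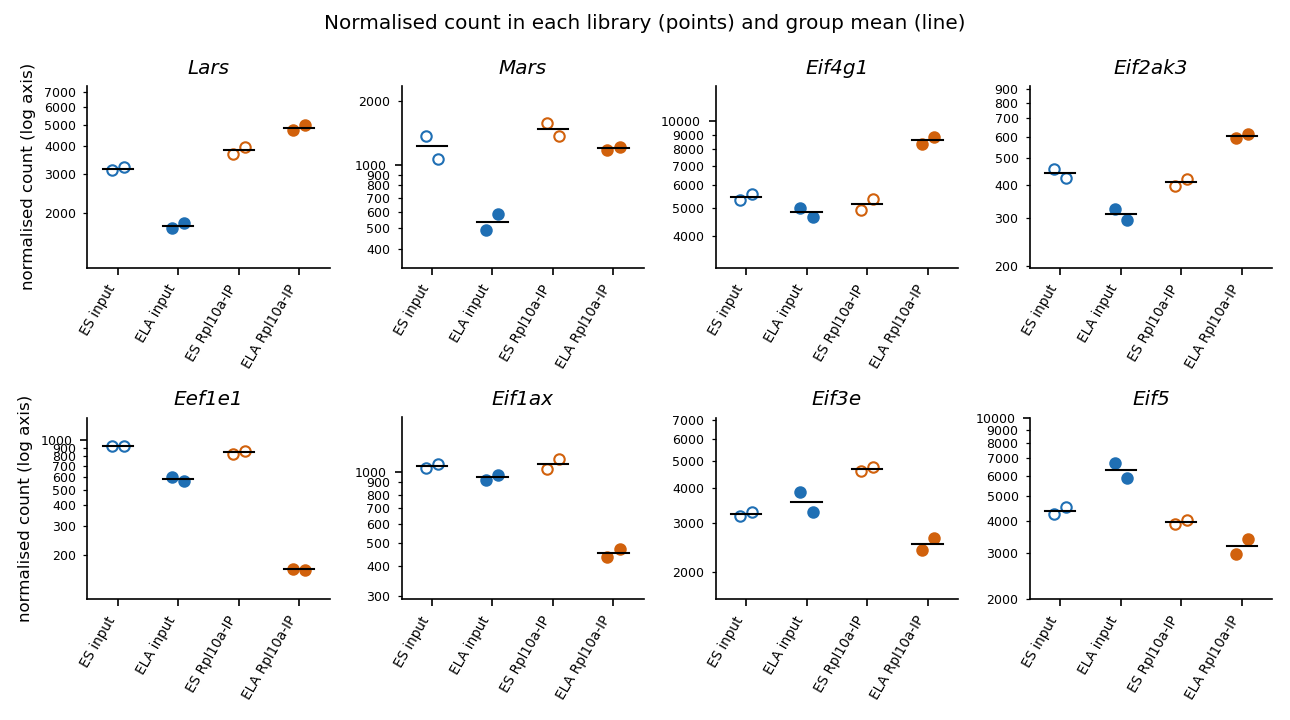
Normalized counts (log axis, a scale of its own for each gene) of 8 members in each of the 8 libraries, open points for ES and filled points for ELA, blue for input and orange for Rpl10a-IP; lines are means of 2 libraries. For Lars and Eif2ak3 the ELA points lie below ES in input and above ES in Rpl10a-IP, and for Eif5 the order is the opposite.

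Eif5a, whose product helps the ribosome past difficult peptide bonds, went from 4321 and 4588 to 2047 and 1955 on ribosomes, 2.21-fold lower, and fell by 0.54 in total RNA. Its enrichment changed by -0.62 ± 0.15. With length correction the total and enrichment calls ended, at -0.11 and -0.16, and the bound fall was -0.26. Among the termination and recycling factors, the release factor Etf1 fell by 0.59 in total and 0.97 in bound RNA. Its change of enrichment, -0.39, was lost without ES input replicate 1 (-0.30), ES Rpl10a-IP replicate 2 (-0.35) or ELA Rpl10a-IP replicate 1 (-0.32). The release factor GTPase Gspt1 had changes of -0.17 in both fractions, and the recycling factor Abce1 of 0.06 in total and 0.02 in bound RNA, none past the threshold. With length correction Gspt1 was called lower in both, at -0.52 and -0.87. Pabpc1, the main cytosolic poly(A)-binding protein, had 18881 and 18706 in ES input and 17509 and 21222 in ELA input, and 11957 and 12123 against 11264 and 11751 in Rpl10a-IP. Neither change passed, though the bound change was called with length correction (0.21), and in both stages the Rpl10a-IP values were below all input values. Pabpc4 fell in total RNA by 0.45 ± 0.11, and its bound change, -0.11, did not pass.

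Per kilobase of transcript, the level of Eef1a1 was the highest of the members in every group, with a mean normalized count per kilobase of 41114 in ES input and 25932 in ELA Rpl10a-IP. Eef1b2 and Eif4a1 followed in ES input, at 10984 and 9961, and Eif2ak2 was lowest at 55.7. On the same scale, Eef1a1, Eif4a1 and Eef2 led in ELA Rpl10a-IP, where Eif4a1 was at 8193 and Eef2 at 4661. Eef1a1, Eif4a1, Eif5a and Pabpc1 have processed pseudogene copies, so reads counted for them are uncertain.

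Enrichment was then examined within each stage. In ES, 13 members were higher in Rpl10a-IP than in input and 10 were lower (27.7% and 21.3%), beside 20.5% and 18.7% of all genes. In ELA, 15 were higher and 17 lower (31.9% and 36.2%), beside 36.8% and 37.2% of all genes. With length correction 19 were higher and 13 lower in ELA, beside 34.1% and 36.8%, with a median of 0.12 in place of 0.0029. No member differed by more than 2-fold in ES, while 7 did in ELA: Lars, Mars, Rars2 and Eprs higher, and Eef1e1, Eif1ax and Eif5a lower. Over all genes enrichment also ranged more widely in ELA, from -3.82 to 2.33, than in ES, from -2.68 to 0.92. The share of all genes beyond 2-fold was not counted. With length correction the ELA value of Eif5a was -0.47. The ELA estimates rest on the shallow input libraries. Enrichment was higher in both stages for 8 members (Abce1, Eif3l, Eif4a1, Eprs, Lars, Mars, Rars and Rars2) and lower in both for 7 (Eef1b2, Eef2, Eif3c, Eif3h, Eif4b, Eif5a and Pabpc1). The share of all genes called the same way in both stages was not counted, so these are lists of names only. The ES calls of 5 of the 8 (Eif3l, Eif4a1, Lars, Mars, Rars2) and 4 of the 7 (Eef2, Eif3c, Eif3h, Eif4b) were lost on leaving out 1 library, and so were the ELA calls of Eef2 and Eif3c. The ES value of Mars, 0.29, was 0.11 without ES input replicate 2. Abce1, Eprs, Rars, Eef1b2, Eif5a and Pabpc1 were called in both stages in every fit that left out 1 library. Abce1 was 1.51-fold higher in ES and 1.44-fold in ELA, and Pabpc1 was 1.55-fold and 1.67-fold lower.

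The sign of enrichment differed between the stages, past the threshold in each, for 3 members, and how many of all genes did so was not counted. Eif1a was enriched in ES, 0.42 ± 0.09, and depleted in ELA, -0.77 ± 0.12. Eif3e was at 0.55 ± 0.09 in ES and at -0.50 ± 0.11 in ELA, and with length correction the ELA value was -0.01, no longer past the threshold, while its change between stages was still called (-0.63). Eif4a2 went the other way, from -0.21 ± 0.09 to 0.28 ± 0.10. The ES call of Eif4a2 was lost on leaving out any ES library (-0.25 to -0.16), and its ELA call without ELA input replicate 1 (0.21) or ELA Rpl10a-IP replicate 1 (0.26). Its change between stages passed in every fit that left out 1 library. The test of that change over the members gave 11 higher and 10 lower, 23.4% and 21.3%, beside 28.4% and 27.7% of all genes. The median change of enrichment was -0.01 for the members and 0.01 for all genes. These shares were below the background. With correction for transcript length, described below, 38.3% were higher and 19.1% lower, beside 26.0% and 25.8%, and the median of the members was 0.16.

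**Figure D4:**
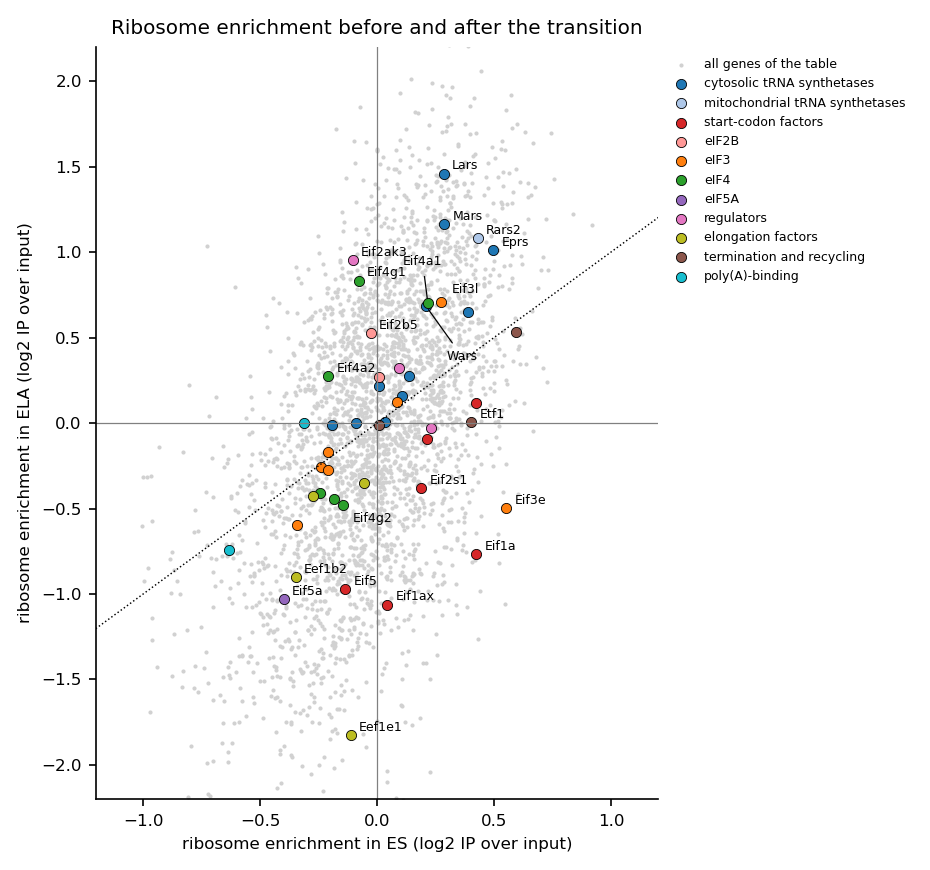
Ribosome enrichment (log2 Rpl10a-IP over input) in ES, x axis, and in ELA, y axis, for all genes of the table (gray; 33 genes lie outside the axes) and for 46 members, colored by role; names mark members whose enrichment changed between the stages. The dotted line marks equal enrichment; Lars lies far above it at 1.46 in ELA, and Eef1e1 far below it at -1.83.

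mRNAs with a terminal oligopyrimidine (TOP) tract at their start code for many elongation factors and ribosomal proteins, and mTOR signaling is known to control their translation. Of 11 TOP members listed, 7 were measured: Eef1a1, Eef1b2, Eef2, Eif3e, Eif3h, Eif4b and Pabpc1. In ELA all 7 had less in Rpl10a-IP than in input, with a median of -0.50, from -0.90 for Eef1b2 to -0.35 for Eef1a1, beside 37.2% of all genes lower. The call for Eef2, -0.43, was lost without ELA Rpl10a-IP replicate 2 (-0.25). In ES, 5 were lower, beside 18.7% of all genes, Eif3e was higher and Eef1a1 did not pass, with a median of -0.27. The ES calls of Eef2, Eif3h and Eif4b were lost without ES input replicate 1 or ES Rpl10a-IP replicate 1. The change of enrichment between the stages passed for Eif3e and Eef1b2, both lower, and only for Eif3e after correction for transcript length. After correction for transcript length 4 of the 7 were still called lower in ELA, and the values of Eef1a1 and Eif3h turned to 0.02 and 0.07.

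Changes of total and bound RNA were correlated with transcript length, across all genes and within the members. The correlation between log10 length and the change of bound RNA was 0.58 (Pearson; Spearman 0.61) over 3113 genes and 0.47 (0.41) over the 47 members. For total RNA it was 0.32 (0.36) over all genes and 0.33 (0.39) over the members, and for the change of enrichment 0.48 (0.44) and 0.23 (0.11). These are descriptions across genes, which share libraries and are not independent replicates. All 12 members of at most 2000 nt fell on ribosomes, while 8 of the 16 above 3500 nt fell and 3 rose. Over all genes, 422 of 505 in the short class fell, and above 3500 nt 377 of 1678 fell and 1036 rose. The long members thus fell more often than they rose, unlike all genes of that length, which was not tested.

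Each library was therefore also corrected for length. In total RNA, 32 members then fell and 3 rose, beside 34.8% and 32.5% of the 3113 genes. With this correction alone, all 11 cytosolic synthetases still fell, with a median of -0.82. In bound RNA 22 fell and 11 rose, beside 37.2% and 39.2%, and 19 of the 33 falls were called in both. Eif3i, one of the shortest members, turned from -0.33 to 0.80, and Eif3d, Eif3l and Rars2 turned to 0.27, 0.31 and 0.31. The 6 start-codon factors still fell, with a median of -0.76. The steep falls of Eef1e1 and Eif5a shrank from -2.35 to -1.14 and from -1.14 to -0.26, and the rise of Eif4g1 from 0.75 to 0.26, while those of Eif2ak3 and Lars were 0.34 and 0.30. The change of enrichment then passed in 18 members toward higher and 9 toward lower values, beside 26.0% and 25.8%. All 11 called higher without the correction were still called, and 8 of the 10 called lower, without Eif5a and Eef1b2. Lars (1.16), Mars (0.99), Eif2ak3 (0.96), Eif1ax (-1.27), Eif1a (-1.06) and Eef1e1 (-1.03) stayed among the largest. The part of transcript length in the uncorrected values was not tested.

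**Figure D5:**
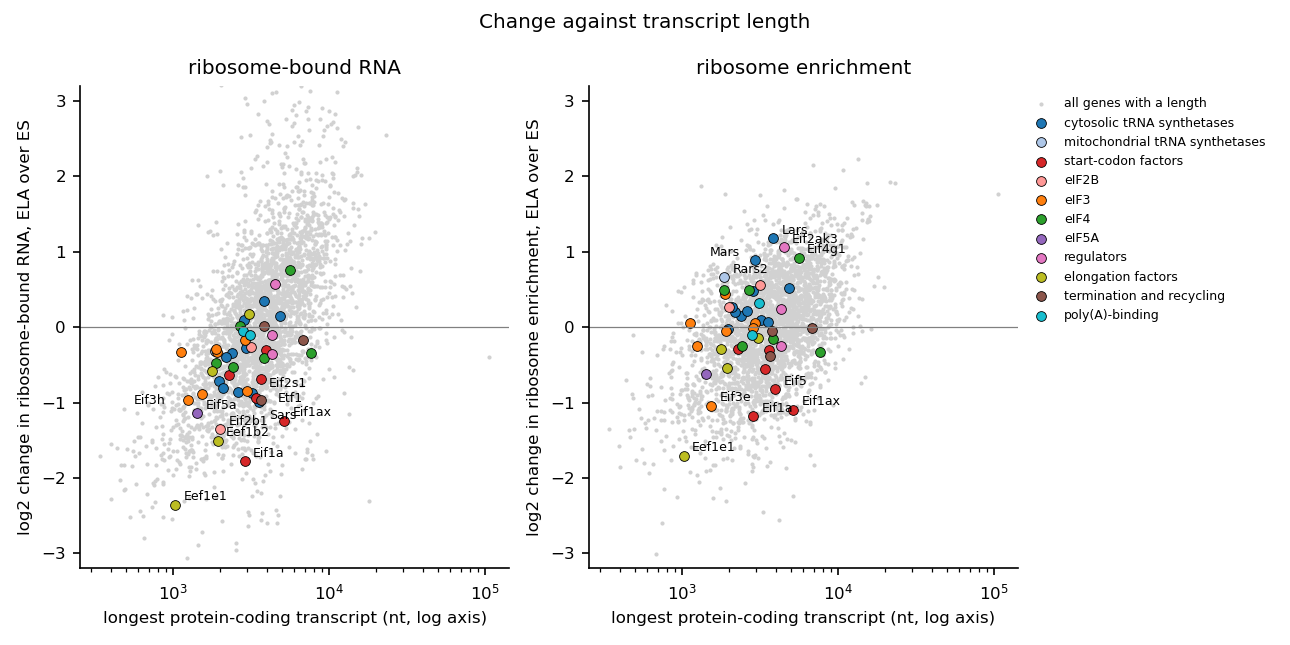
Log2 change from ES to ELA of ribosome-bound RNA (left; 30 genes lie outside the axis) and of ribosome enrichment (right) against the length of the longest protein-coding transcript in nt (log axis), for all genes with a length (gray) and 46 members, colored by role; names mark the 10 members with the largest changes. Long transcripts lie higher, and Eef1e1 at 1032 nt is the lowest member in both panels.

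Genes around this machinery were counted from lists as well. Of 29 genes of the amino acid response driven by ATF4, which also controls several tRNA synthetase genes, 10 were measured, and in total RNA 7 fell and 2 rose, with a median of -1.32, beside the 35.7% and 34.5% of all genes that fell and rose. Cth, for cysteine synthesis, fell by 2.13 ± 0.14 and the amino acid transporter Slc7a5 by 1.69 ± 0.14. Ddit4, an inhibitor of mTOR, rose by 1.61 ± 0.16, and the serine synthesis enzyme Phgdh by 0.50 ± 0.14, a call lost without ES input replicate 2 (0.27). Of 36 other cytosolic translation genes, 15 were measured, with 5 up and 5 down in total RNA, close to those shares, and 9 up and 4 down on ribosomes, beside 41.6% and 41.9% of all genes. Paip1, a partner of the poly(A)-binding protein, and Pdcd4, an inhibitor of the eIF4A helicase, rose in total RNA by 1.24 and 0.94. The ribosomal protein gene Rps6 and the eIF4E kinase gene Mknk2 fell by 0.61 and 0.59, and for Rps6 the length-corrected change was -0.02, while the call for Mknk2 was lost without ES input replicate 1 (-0.42). Both measured mitochondrial translation factors, Gfm2 and Mrrf, fell, by 0.38 and 0.96, the former lost without ES input replicate 1 (-0.25).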

How the data were processed

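Total RNA and Rpl10a-bound RNA were sequenced after rRNA removal. Reads were aligned by the authors with TopHat2 against mouse transcripts of build mm10, counted per gene with HTSeq and divided by DESeq2 size factors; the strand used in counting is not given in the sources used here. The deposited per-library values are normalized read counts, a signal in units of reads divided by the size factor of the library. The authors filtered genes, and those deposited had a larger mean input of at least 50.02 and an SD of ratios of at most 19.98% of the mean in ELA and 19.95% in ES. They deposited 26 other columns, which were not used. Of these the authors computed means, SDs, Rpl10a-IP over input ratios, fold changes of the ratios and their log2. Every value was a whole multiple of 1 read (tolerance 1e-06), so reads were read back for scaling by trimmed means of M values (TMM).

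limma (version 3.58.1, R 4.3.3; lmFit, eBayes with trend) was fitted to log2(normalized count + 1), which understates changes of low genes, with 1 coefficient per group and Benjamini-Hochberg adjustment over 3160 genes at 0.05. The study's methods left out ELA input replicate 1 and, for that reason, give no significance of enrichment changes for single genes. The adjusted p-values given here for total RNA, ELA enrichment and the change of enrichment do use it. Counting intervals treat its reads, duplicates included, as independent. The bound RNA and ES enrichment fits used the 7 libraries without it, and fits that need ELA input used all 8. The count models of the written design were not run. Lengths and GC content were those of the longest protein-coding GENCODE transcript by symbol (3113 genes, all 47 members), and loess had a span of 0.5. The longest transcript need not be the one expressed, so corrected values of single genes depend on this choice. For Wars its coding part was 120 of 2878 nt, and for Eif4g2 2607 of 7646 nt. RefSeq positions matched 46 members. Depth of each library and its counting error are in the report. The fit was tested on data simulated for total RNA, bound RNA and the change of enrichment, with all 8 libraries scaled by total reads. The share of false calls was under the threshold for bound RNA and for the change of enrichment, and above it for total RNA. Why they differed was not tested, and total RNA and the change of enrichment both rest on the shallow ELA input libraries. Enrichment within each stage was not simulated.

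The members, a family taken by symbol, the lists and the tests were chosen with earlier results of these data known. Genes named were, per role, the up to 4 with the largest changes past the threshold, every TOP member, up to 2 per companion list and direction, members with opposite enrichment in the stages, and any in a count of 5 or fewer. The values of 1 member are not reported here, though counts over the members include it.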

Additional observations from a re-analysis of the deposited data

Results flagged for a closer look

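The difference in ribosome enrichment between ELA and ES, tested as an interaction in limma over 8 libraries, passed the threshold for 21 members, 23.4% higher and 21.3% lower, beside 28.4% and 27.7% of all genes. On the log2 scale it was lower in ELA for Eef1e1 (-1.70), Eif1a (-1.18), Eif1ax (-1.09), Eif3e (-1.04), Eif5 (-0.83), Eif5a (-0.62), Eif2s1 (-0.56), Eef1b2 (-0.54), Etf1 (-0.39) and Eif4g2 (-0.32). It was higher in ELA for Lars (1.19), Eif2ak3 (1.07), Eif4g1 (0.92), Mars (0.89), Rars2 (0.66), Eif2b5 (0.56), Eprs (0.52), Eif4a1 (0.50), Eif4a2 (0.49), Wars (0.48) and Eif3l (0.45). Of these, 17 were called in every fit that left out 1 library. Eif4g2, Etf1, Wars and Eif3l were not, and the libraries concerned stand with their values in the report.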

How the results depend on the processing

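Each of the 149 member calls was recomputed under the alternatives, 2758 values in all, of which 2587 kept their direction and stayed past the threshold, 140 kept the direction but no longer passed, and 31 reversed. All 31 reversed values came with correction for transcript length. With length correction alone, bound RNA changes became Eef1a1 0.076, Eif3d 0.27, Eif3h 0.055, Eif3i 0.80, Eif3l 0.31, Eif4a1 0.14, Gars 0.064, Kars 0.083 and Rars2 0.31, total RNA changes Eef1a1 0.029, Eif3d 0.024 and Eif3i 0.12, and ELA enrichment Eef1a1 0.019, Eif3d 0.052 and Eif3h 0.073. It gave 11 rises in bound RNA in place of 3 and 18 gains of enrichment in place of 11. Input was taken from the lysate used for precipitation, but the labels do not tie lysates to replicate numbers. Same-numbered deviations correlated at 0.50 for ELA input and Rpl10a-IP, and from -0.02 to 0.17 for the other 5 pairs of groups. With the replicate number as a block (replicate block) all 149 calls held, with 35 falls and 2 rises in total RNA. A replicate block within each stage, added after seeing the data, kept all 76 enrichment calls. The fit with the replicate block and both length and GC correction left 20 of the 149 calls in the same direction but no longer past the threshold, not all of them named here. With the replicate block over both stages plus length and GC correction, bound RNA became Eef1a1 0.15, Eif3d 0.21, Eif3e 0.0055, Eif3h 0.051, Eif3i 0.77, Eif3l 0.31, Eif4a1 0.18, Gars 0.062, Kars 0.067 and Rars2 0.42, total RNA Eef1a1 0.094, Eif3d 0.093 and Eif3i 0.18, and ELA enrichment Eif3d 0.056, Eif3e 0.16 and Eif3h 0.0043, with 4 rises in total RNA, 12 rises in bound RNA and 6 losses of enrichment between stages. With the deposited size factors, which were set within each fraction and so had the Rpl10a-IP libraries rescaled to a median enrichment of 0, 1 member rose in total RNA and 6 were lower in ES enrichment; with all 8 libraries in the ES enrichment fit 6 were lower as well. Leaving out 1 library at a time gave 1 to 3 rises and 29 to 35 falls in total RNA, 3 to 4 and 29 to 34 in bound RNA, 8 to 14 higher and 4 to 11 lower in ES enrichment, 13 to 17 and 14 to 17 in ELA enrichment, and 9 to 15 higher and 8 to 14 lower in the change of enrichment. The ES enrichment count fell to 8 higher without ES Rpl10a-IP replicate 2, and to 4 and 5 lower without ES input replicate 1 and ES Rpl10a-IP replicate 1. The causes of these differences were not tested. A weight for each group, added after seeing the data because the ELA input libraries were shallow, kept 141 of 149 calls, and no call changed with another pseudocount or a filter of 10 reads. Without ELA input replicate 1 the arm rests on 1 library assumed to vary like the others. Planned count models were not run.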
